A study of Mus musculus with 11 samples.

Results

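Colony-stimulating factor (CSF) signalling in alveolar macrophages (AMs) was followed through 10 genes, chosen by name from the 12932 genes of the deposited table. These are the ligand gene *Csf1*, the receptor genes *Csf1r*, *Csf2ra*, *Csf2rb*, *Csf2rb2* and *Csf3r*, the kinase gene *Jak2*, the transcription factor genes *Stat5a* and *Stat5b*, and the STAT5-induced inhibitor gene *Cish*. All 10 have a row in the table, and all 10 passed the filter of 1 CPM (reads scaled to library size) or more in at least 3 libraries. *Csf1* passed it only through the groups in which it was higher. The study asked how the retinoid X receptors RXRα and RXRβ shape AM identity. Its RNA-seq series holds 11 libraries of 40000 sorted cells from 9-week-old mice on the C57BL/6J background. Control mAMs (mAM_WT, 4 libraries) are CD11b- SiglecF+ mature AMs of *Rxrab* fl/fl littermates without Cre. RXR-deficient mAMs (mAM_KO, 4 libraries) passed the same gate in Cd11cCre+ *Rxrab* fl/fl mice, and RXR-deficient ImmAMs (Imm_KO, 3 libraries) are the CD11b+ SiglecF+ immature AMs of that genotype. Both genotypes carry the floxed alleles, no library comes from a Cre+ mouse with wild-type *Rxra* and *Rxrb*, and the *Cd11c* promoter that drives Cre is also active in dendritic cells. There are no ImmAMs from control mice, so in the comparison of ImmAMs with control mAMs the genotype and the maturation state cannot be told apart.

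M-CSF (encoded by *Csf1*) and IL-34 signal through the receptor tyrosine kinase CSF1R, on which most macrophages depend. GM-CSF binds the α chain CSF2RA and recruits the common β chain CSF2RB, which brings in JAK2 and leads to phosphorylation of STAT5A and STAT5B; AMs are the macrophages that need GM-CSF to develop, and without it surfactant accumulates in the alveoli. Mice carry a close relative of the common β chain, *Csf2rb2*, whose product pairs with the IL-3 receptor α chain. G-CSF acts on CSF3R, a receptor best known from neutrophils. CISH, the SOCS proteins and several phosphatases are made or recruited upon cytokine stimulation and damp the signal.

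Libraries held 16659960 to 37873532 counted reads. The gate genes followed the labels in part. *Itgam*, which encodes CD11b, was at 3.52 to 3.85 CPM in control mAMs, 3.93 to 9.95 CPM in RXR-deficient mAMs and 168 to 174 CPM in ImmAMs. *Siglecf* was at 244 to 264, 198 to 241 and 19.3 to 19.7 CPM, so ImmAMs carried little *Siglecf* mRNA despite the SiglecF+ gate. *Rxra* was at 310.3 to 379.5, 334 to 419 and 283 to 305 CPM and *Rxrb* at 51.4 to 72.1, 39.3 to 55.3 and 31.9 to 35.2 CPM, and a count over a whole gene does not show whether single exons were removed. The 9 AM markers summed to 17956 to 23226, 22105 to 28250 and 23212 to 24928 CPM, with the ImmAM sum made almost wholly of *Chil3*, *Itgax* and *Plet1*. The other AM markers were lower in ImmAMs. *Krt79* was at 594 to 759, 116 to 402 and 5.96 to 7.01 CPM, and *Fabp4* at 126 to 203, 42.7 to 79.9 and 25.7 to 32.1 CPM. *Marco* was at 310 to 377 CPM in control mAMs and 10.9 to 13.8 CPM in ImmAMs. *Cidec* was at 358 to 419 and 7.90 to 9.53 CPM, and *Car4* at 308 to 347 and 101 to 111 CPM. Some markers of other cells moved with the ImmAM gate. Interstitial macrophage markers (7 of 9 with a row, without *Folr2* and *Lyve1*) summed to 2.20 to 3.41, 4.40 to 12.5 and 232 to 251 CPM. Of this sum in ImmAMs, *Cx3cr1* made up 110 to 124 CPM and *C1qb* 45.8 to 49.7 CPM. *Maf* gave only 2.53 to 3.73 CPM and *Cd163* 1.65 to 2.91 CPM, and each gene of the list was higher in ImmAMs than in any mAM library. Monocyte markers (7 of 9, without *Ly6c2* and *Plac8*) summed to 141 to 151, 138 to 175 and 187 to 190.0 CPM, and dendritic cell markers (3 of 8) to 10.04 to 11.96, 9.33 to 13.2 and 25.0 to 29.2 CPM. The monocyte markers went opposite ways. *Ccr2* was at 8.91 to 14.0 CPM in control mAMs and 79.0 to 86.4 CPM in ImmAMs, whereas *Treml4* was at 39.8 to 50.7 and 2.85 to 3.49 CPM, *Nr4a1* at 11.8 to 16.01 and 7.12 to 8.17 CPM, and the ranges of *Vcan* overlapped. In RXR-deficient mAMs, *Ccr2* was at 10.4 to 23.2 CPM and *Treml4* at 28.8 to 36.9 CPM. *Nr4a1* was at 5.29 to 9.67 CPM there, a range that holds that of ImmAMs, so its fall was not particular to the ImmAM gate. Of the dendritic cell sum, *Clec9a* made up 17.7 to 22.3 CPM in ImmAMs, and the ranges of *Ccl22* overlapped. Neutrophil markers (5 of 11, without *Ly6g*, *Camp*, *Ngp*, *Elane*, *Mpo* and *Padi4*) summed to 6.70 to 12.1, 8.87 to 14.5 and 19.4 to 27.8 CPM, and the 1 eosinophil gene with a row, *Alox15*, reached at most 3.36 CPM. The lists for B cells (1 of 4 with a row), club and ciliated cells (1 of 4) and erythroid cells (2 of 3) summed to at most 1.60, 1.76 and 7.64 CPM in any library, and no marker of mast cells and basophils, T and NK cells, alveolar type 2 cells, endothelial cells or fibroblasts had a row. In bulk samples such as these, fewer cells of a type and less RNA per cell cannot be told apart, and the part of other cells in the results below was not tested.

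The 10 genes were compared in limma with the 10 libraries that the study used (mAM_KO replicate 4 left out), with p-adj under 0.05 as the threshold. In RXR-deficient mAMs, 2 of the 10 genes changed against control mAMs: *Stat5a* fell and *Csf1* rose. Over all 12889 genes tested, 4.84% changed in that comparison. Neither gene was called in a fit of only these groups, without a variance trend or with a term for the replicate number (the replicate block). In each of these fits, 4 of the 10 genes had an unadjusted p under 0.05. In ImmAMs, 7 of the 10 changed against control mAMs, with 48.1% of all genes called: *Csf1*, *Csf1r*, *Csf2rb2*, *Csf3r* and *Jak2* rose, and *Stat5a* and *Stat5b* fell. Between ImmAMs and RXR-deficient mAMs, 4 of the 10 changed against 37.9% of all genes, *Csf1* and *Csf1r* upwards and *Stat5a* and *Stat5b* downwards, a share near that of all genes. With mAM_KO replicate 4 included, 2, 6 and 8 of the 10 genes were called, against 2.61%, 45.5% and 38.1% of the 12932 genes then tested. The 3 comparisons share libraries and are not independent of each other.

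**Figure D1:**
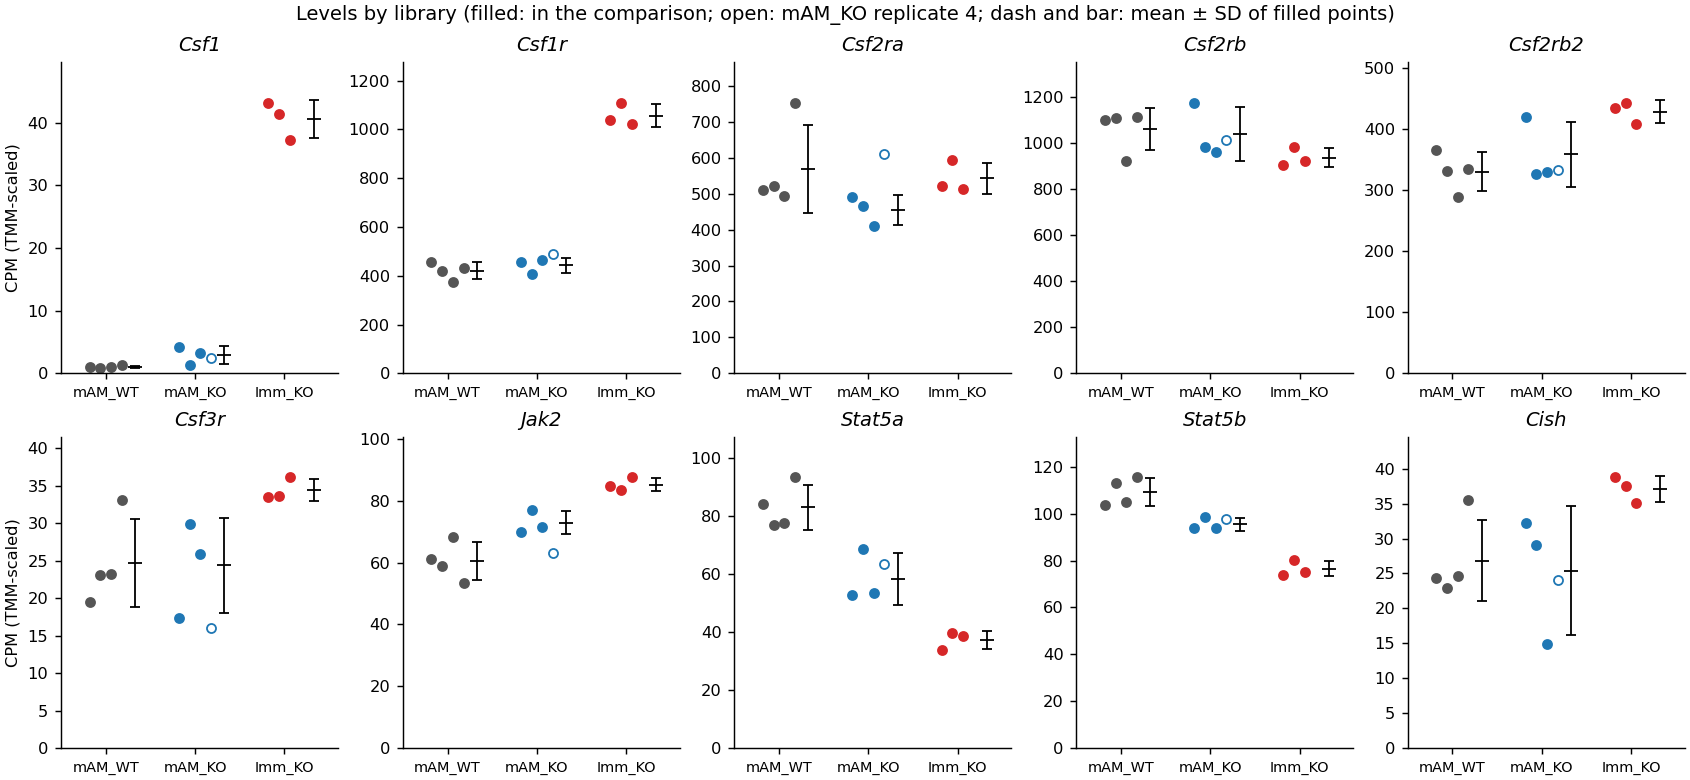
CPM on TMM-scaled library sizes (y axis, from 0) of the 10 genes in each of the 11 libraries, by group (x axis); filled points entered the comparisons, the open point is mAM_KO replicate 4, and the dash with its bar is the mean ± SD of the filled points. *Csf1* and *Csf1r* stand apart in the 3 ImmAM libraries, *Stat5a* steps down from group to group, and the *Csf2ra* and *Csf2rb* points of the 3 groups overlap.

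*Csf1*, the gene of the ligand M-CSF, had the largest difference of the 10. It was at 0.964, 0.824, 0.957 and 1.35 CPM in control mAMs 1 to 4, which is 20 to 36 reads per library. Of these only replicate 4 reached the 1 CPM of the filter, so *Csf1* passed it through the RXR-deficient libraries. Its fold changes against control mAMs therefore rest on a level near the filter. RXR-deficient mAMs 1 to 4 had 4.22, 1.34, 3.19 and 2.45 CPM, and ImmAMs 2 to 4 had 43.2, 41.4 and 37.3 CPM. The ImmAM libraries lay far above all others, while RXR-deficient mAM replicate 2 lay within the control range. Against control mAMs, *Csf1* was 40.3-fold higher in ImmAMs (log2 fold change 5.33, SE 0.333, p-adj = 4.01e-08 in limma). Against RXR-deficient mAMs the difference was 15.5-fold (log2 3.95, SE 0.356, p-adj = 2.10e-06). In RXR-deficient mAMs the rise over control mAMs was 2.60-fold (log2 1.38, SE 0.333, p-adj = 0.0381). This last call was lost without any one of 7 libraries, at p-adj = 0.0967 without mAM_WT replicate 2, 0.0658 without mAM_WT replicate 3, 0.131 without mAM_KO replicate 1, 0.137 without mAM_KO replicate 3, and 0.0601, 0.0594 and 0.0587 without Imm_KO replicates 2, 3 and 4, and with mAM_KO replicate 4 added it was 0.0305. Over 19 alternative fits its p-adj ran from 2.32e-05 to 0.119. It was above the threshold with limma-voom (0.0900), without a variance trend (0.0853), with the replicate block (0.0744) and with only the groups compared (0.119). No row in the table exists for the other ligand genes of the pathway, *Il34*, *Csf2*, *Csf3*, *Il3* and *Il5*, so among these ligands only the mRNA of M-CSF could be followed.

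*Csf1r*, which encodes the M-CSF receptor (GRCm38 chromosome 18, bases 61100598 to 61132149), was higher in ImmAMs than in either group of mAMs. Control mAMs 1 to 4 had 458, 418, 375 and 431 CPM. In RXR-deficient mAMs 1 to 4 it was at 456, 409, 466 and 488 CPM, and ImmAMs 2 to 4 had 1037, 1109 and 1023 CPM. The mAM groups overlapped, and each ImmAM library was above every mAM library by more than the whole spread among mAMs. *Csf1r* was 2.52-fold higher in ImmAMs than in control mAMs (log2 1.33, SE 0.0768, p-adj = 1.98e-08 in limma) and 2.38-fold higher than in RXR-deficient mAMs (log2 1.25, SE 0.0821, p-adj = 1.27e-07). Both calls held in each alternative and with each library left out. Between RXR-deficient and control mAMs the difference was 0.08 on the log2 scale, with a 95% confidence interval of -0.09 to 0.25 (p-adj = 0.560).

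The GM-CSF receptor genes behaved unlike *Csf1r*. *Csf2ra*, the gene of the ligand-binding α chain (chromosome 19, 61223957 to 61228429, minus strand), was at 510.2, 520.0, 493 and 753 CPM in control mAMs 1 to 4. The RXR-deficient mAMs 1 to 4 stood at 491, 464, 409.9 and 609 CPM, and ImmAMs 2 to 4 had 522, 593 and 513 CPM. Replicate 4 was the highest library of both mAM groups, and the 3 groups overlapped. *Csf2ra* in ImmAMs differed from control mAMs by -0.05 on the log2 scale (95% confidence interval -0.33 to 0.23, p-adj = 0.779 in limma), which turned to 0.09 without mAM_WT replicate 4 (p-adj = 0.341). In RXR-deficient mAMs it differed by -0.30 (interval -0.58 to -0.02, p-adj = 0.176, and 0.546 with mAM_KO replicate 4), and by only -0.16 without mAM_WT replicate 4 (SE 0.0774, p-adj = 0.258). ImmAMs were 0.25 above RXR-deficient mAMs (interval -0.04 to 0.55, p-adj = 0.168), and that difference passed the threshold without mAM_WT replicate 4 (p-adj = 0.0196) and ran from 0.0330 to 0.469 over the alternative fits.

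*Csf2rb*, the gene of the common β chain of the GM-CSF, IL-3 and IL-5 receptors, is the member with the most reads. It was at 1099, 1107, 922 and 1111 CPM in control mAMs 1 to 4. RXR-deficient mAMs 1 to 4 had 1175, 982, 962 and 1015 CPM, and ImmAMs 2 to 4 had 906, 983 and 919.8 CPM. All 3 groups overlapped. The log2 differences were -0.03 for RXR-deficient against control mAMs (95% confidence interval -0.22 to 0.16, p-adj = 0.872 in limma), -0.17 for ImmAMs against control mAMs (-0.37 to 0.02, p-adj = 0.122) and -0.15 for ImmAMs against RXR-deficient mAMs (-0.35 to 0.06, p-adj = 0.254). Without mAM_WT replicate 3, the lowest control library, the fall in ImmAMs against control mAMs was called (log2 -0.24, p-adj = 0.0317), and the value of RXR-deficient mAMs was -0.10.

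*Csf2rb2* encodes the relative of the common β chain that serves the IL-3 receptor. It lies next to *Csf2rb* on chromosome 15, at 78282507 to 78305721 on the minus strand, with *Csf2rb* at 78325752 to 78353847 on the plus strand. The control mAMs 1 to 4 stood at 366, 331, 288 and 335 CPM of *Csf2rb2*. In RXR-deficient mAMs 1 to 4 it was at 419, 327, 329 and 332 CPM, and ImmAMs 2 to 4 had 435, 443 and 408 CPM. ImmAMs lay above all control libraries, and RXR-deficient mAM replicate 1 lay within the ImmAM range. *Csf2rb2* rose 1.302-fold in ImmAMs against control mAMs (log2 0.38, SE 0.0976, p-adj = 0.00608 in limma), a call kept with each library left out. Against RXR-deficient mAMs the value was 0.27 (SE 0.104, p-adj = 0.0605), and it was called with all 11 libraries (0.0321), without mAM_KO replicate 1 (0.00842) and without mAM_WT replicate 3 (0.0429), with 0.0165 to 0.142 over the alternative fits. Between RXR-deficient and control mAMs the value was 0.11 (interval -0.10 to 0.32, p-adj = 0.512), and -0.0047 without mAM_KO replicate 1 (p-adj = 0.985).

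Reads of these neighbours can be exchanged. Their longest reading frames are identical at 95.2% of 2631 aligned bases, and 9.74% of the 60-base windows of *Csf2rb* transcripts and 14.6% of those of *Csf2rb2* also occur in another gene. The sum of both genes was therefore taken as well. It averaged 1390 ± 121 CPM (SD, n = 4) in control mAMs, 1398 ± 170.1 CPM (n = 3) in RXR-deficient mAMs and 1365 ± 53.5 CPM (n = 3) in ImmAMs. The log2 difference of the sum was 0.01, -0.02 and -0.03 in the 3 comparisons (p-adj = 0.976, 0.857 and 0.851 in limma), so the rise in *Csf2rb2* was not matched by a rise in the sum. The share of *Csf2rb2* in the pair was 23.8% ± 0.883 in control mAMs, 25.6% ± 0.665 in RXR-deficient mAMs and 31.4% ± 0.889 in ImmAMs. ImmAMs, at 30.7% to 32.4%, did not overlap with any mAM library, at 23.0% to 26.3%.

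*Csf3r*, the gene of the G-CSF receptor (chromosome 4, 126024550 to 126044440), was the receptor gene with the fewest reads. Control mAMs 1 to 4 had 19.5, 23.1, 23.2 and 33.1 CPM. The RXR-deficient mAMs 1 to 4 stood at 17.4, 29.9, 25.9 and 16.1 CPM, and ImmAMs 2 to 4 had 33.5, 33.7 and 36.2 CPM. ImmAMs were above all mAM libraries, and control mAM replicate 4 came close to the lowest of them. *Csf3r* rose 1.42-fold in ImmAMs against control mAMs (log2 0.51, SE 0.189, p-adj = 0.0414 in limma). The call was lost with all 11 libraries (p-adj = 0.0658) and without mAM_WT replicate 1 (0.106), 2 (0.0861) or 3 (0.0781) or Imm_KO replicate 2 (0.0820), 3 (0.0815) or 4 (0.114), and ran from 0.00602 to 0.0846 over the alternative fits. Against RXR-deficient mAMs the value was 0.53 (SE 0.202, p-adj = 0.0534), and it was called with all 11 libraries (0.0219) and without mAM_WT replicate 1 (0.0450), mAM_WT replicate 4 (0.0224) or mAM_KO replicate 2 (0.0221), with 0.00677 to 0.183 over the alternative fits. Between RXR-deficient and control mAMs it was -0.03 (interval -0.44 to 0.38, p-adj = 0.947). The summed neutrophil markers rose beside *Csf3r* in ImmAMs, to 19.4 to 27.8 CPM from 6.70 to 14.5 CPM in mAMs, mostly as *S100a8* at 10.7 to 16.6 CPM, and their part in the *Csf3r* result was not tested. Of the *Csf3r* transcript windows, 6.19% also occur in another gene, mainly the pseudogene AC105061.2.

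Per transcript length, the receptor genes kept a fixed order in mAMs that changed in ImmAMs. In control mAMs, *Csf2ra* had 307.7 ± 66.6 CPM per kilobase (SD, n = 4), *Csf2rb* 216 ± 18.8, *Csf1r* 89.4 ± 7.41, *Csf2rb2* 69.7 ± 6.75 and *Csf3r* 7.10 ± 1.68, and the libraries of neighbours in this order did not overlap among the first 4. RXR-deficient mAMs had the same order, at 246, 212, 94.4, 75.6 and 7.01 CPM per kilobase (n = 3), with overlap between *Csf2ra* and *Csf2rb* and between *Csf1r* and *Csf2rb2*. In ImmAMs, *Csf1r* passed *Csf2rb*: *Csf2ra* had 293 ± 23.7, *Csf1r* 225 ± 9.84, *Csf2rb* 191 ± 8.41, *Csf2rb2* 90.4 ± 3.84 and *Csf3r* 9.89 ± 0.428 CPM per kilobase (n = 3), with no overlap between neighbours. Lengths are those of 1 annotated transcript per gene, and the transcripts in use were not measured.

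Within each library, the ratio of *Csf1r* to the summed *Csf2rb* and *Csf2rb2*, per kilobase, set the M-CSF receptor against the β chains. It was 0.323, 0.300, 0.320 and 0.308 in control mAMs 1 to 4. RXR-deficient mAMs 1 to 4 had 0.296, 0.323, 0.373 and 0.374, and ImmAMs 2 to 4 had 0.798, 0.802 and 0.795. The ImmAM ratio was thus 2.55 times that of control mAMs and 2.41 times that of RXR-deficient mAMs, and the 3 ImmAM libraries were nearly identical. The two-sided exact permutation test over libraries gave p = 0.0571 against control mAMs and p = 0.1 against RXR-deficient mAMs, the smallest values that 3 against 4 and 3 against 3 libraries allow (adjusted p = 0.125 over 12 such comparisons of 4 ratios, in the same exact permutation tests). Against *Csf2ra*, the ratio of *Csf1r* was 0.298 ± 0.0538 in control mAMs, 0.387 ± 0.0537 in RXR-deficient mAMs and 0.767 ± 0.0274 in ImmAMs.

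**Figure D2:**
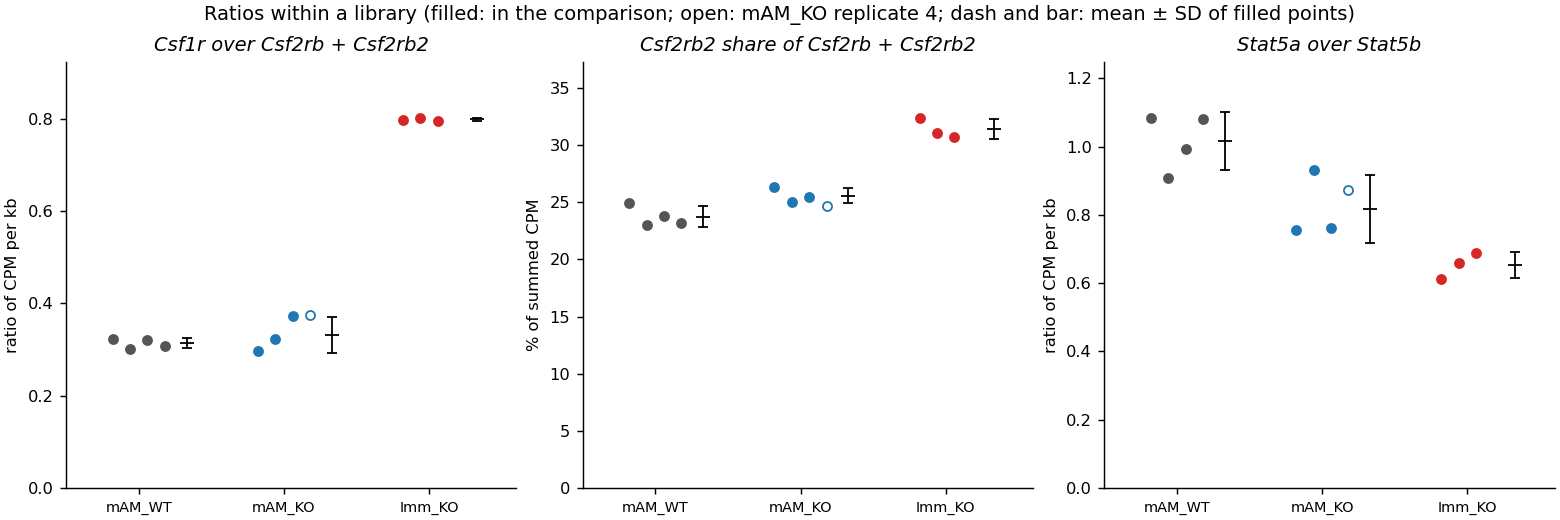
Ratios within each library by group: *Csf1r* over summed *Csf2rb* and *Csf2rb2* (ratio of CPM per kilobase), the share of *Csf2rb2* in the *Csf2rb* pair (% of summed CPM) and *Stat5a* over *Stat5b* (ratio of CPM per kilobase), all on axes from 0. Filled points entered the comparisons, the open point is mAM_KO replicate 4, and the dash with its bar is the mean ± SD of the filled points; ImmAMs sit at 0.795 to 0.802 in the first panel, against 0.296 to 0.374 in all mAM libraries.

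*Jak2*, the kinase gene of the GM-CSF receptor (chromosome 19, 29251828 to 29313080), was higher in ImmAMs. The control mAMs 1 to 4 stood at 61.3, 58.8, 68.4 and 53.4 CPM. In RXR-deficient mAMs 1 to 4 it was at 70.0, 77.1, 71.7 and 63.2 CPM, and ImmAMs 2 to 4 had 84.9, 83.4 and 87.7 CPM. The ImmAM libraries lay above all others, and RXR-deficient mAMs overlapped with control mAMs only through their replicate 4. *Jak2* rose 1.42-fold in ImmAMs against control mAMs (log2 0.50, SE 0.0839, p-adj = 0.000292 in limma), with each library left out as well. In RXR-deficient mAMs the value was 0.28 (SE 0.0839, p-adj = 0.0762), called without mAM_WT replicate 3 (0.0468) and with DESeq2 (0.0430), and 0.22 with mAM_KO replicate 4 (p-adj = 0.224, the highest of the alternative fits). ImmAMs were 0.23 above RXR-deficient mAMs (SE 0.0897, p-adj = 0.0635), and this was called with all 11 libraries (0.0286) and without mAM_WT replicate 3 (0.0401) or 4 (0.0296), with a highest p-adj of 0.121 over the alternative fits.

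*Stat5a*, the gene of a transcription factor that JAK2 phosphorylates, fell in both RXR-deficient groups. Control mAMs 1 to 4 had 83.9, 76.7, 77.6 and 93.3 CPM. The RXR-deficient mAMs 1 to 4 stood at 52.7, 68.7, 53.4 and 63.5 CPM, and ImmAMs 2 to 4 had 33.8, 39.5 and 38.6 CPM. The 3 groups did not overlap, and RXR-deficient mAMs lay between the other groups. Against control mAMs, *Stat5a* was 2.22-fold lower in ImmAMs (log2 -1.15, SE 0.108, p-adj = 1.73e-06 in limma) and 1.43-fold lower in RXR-deficient mAMs (log2 -0.51, SE 0.108, p-adj = 0.0214). ImmAMs were 1.55-fold below RXR-deficient mAMs (log2 -0.64, SE 0.115, p-adj = 0.000759). The calls in ImmAMs held in each alternative and with each library left out, whereas that in RXR-deficient mAMs was lost without mAM_KO replicate 1 (p-adj = 0.0918) or 3 (0.0965) and kept with replicate 4 added (0.0236). Over the alternative fits the latter p-adj ran from 0.000558 to 0.0902. It was above the threshold without a variance trend (0.0730), with only the groups compared (0.0529) and with the replicate block (0.0902).

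*Stat5b*, its neighbour on chromosome 11 (*Stat5a* at 100859351 to 100885169 on the plus strand, *Stat5b* at 100780731 to 100850724 on the minus strand), moved the same way by less. The control mAMs 1 to 4 stood at 104, 113, 105 and 116 CPM. RXR-deficient mAMs 1 to 4 had 93.7, 98.7, 93.9 and 97.6 CPM, and ImmAMs 2 to 4 had 74.0, 80.2 and 75.2 CPM. As for *Stat5a*, the groups did not overlap. *Stat5b* fell 1.43-fold in ImmAMs against control mAMs (log2 -0.51, SE 0.0665, p-adj = 3.29e-05 in limma) and 1.25-fold against RXR-deficient mAMs (log2 -0.32, SE 0.0711, p-adj = 0.00322), and both calls held with each library left out. In RXR-deficient mAMs the value was -0.19 (interval -0.34 to -0.05), which did not pass the threshold (p-adj = 0.103, and 0.160 with mAM_KO replicate 4). The ratio of *Stat5a* to *Stat5b* per kilobase was 1.02 ± 0.0844 in control mAMs, 0.817 ± 0.1004 in RXR-deficient mAMs and 0.654 ± 0.0378 in ImmAMs, with an exact permutation p of 0.0571 for ImmAMs and 0.114 for RXR-deficient mAMs against control mAMs. The pair shares sequence too, with 90.7% of 2346 aligned bases of the reading frames identical and 6.83% of *Stat5a* windows and 9.21% of *Stat5b* windows found in the other gene. In ImmAMs, *Stat5a* had the lowest mean per kilobase of the 10 genes, at 9.59 ± 0.782, with overlap with *Csf1* at 9.73 ± 0.721.

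**Figure D3:**
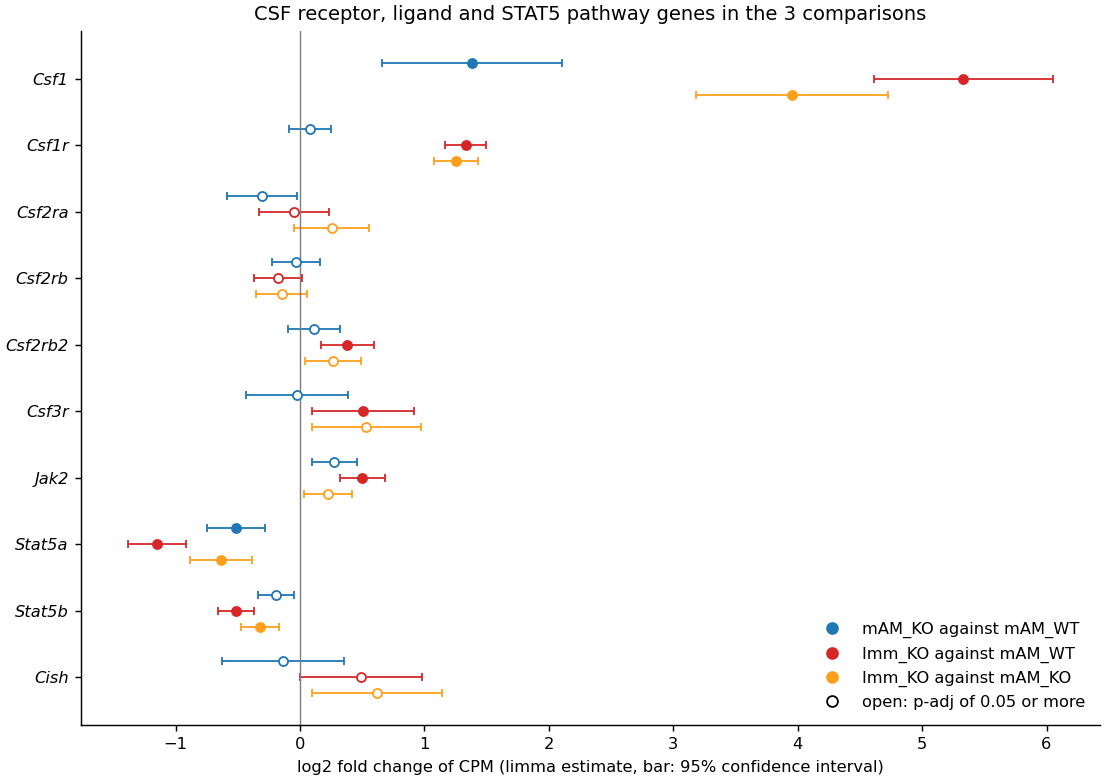
log2 fold change of CPM (x axis) of the 10 genes (y axis) in the 3 comparisons (colours), as limma estimates with 95% confidence intervals as bars; filled points have a p-adj under 0.05. *Csf1* and *Csf1r* lie to the right in both comparisons of ImmAMs, *Stat5a* lies to the left of 0 in all 3 comparisons, and the intervals of *Csf2rb* include 0 in all 3.

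*Cish*, which STAT5 switches on and whose product binds the activated receptors, did not follow *Stat5a* and *Stat5b* downwards in ImmAMs. Control mAMs 1 to 4 had 24.3, 22.9, 24.7 and 35.5 CPM. In RXR-deficient mAMs 1 to 4 it was at 32.2, 29.1, 14.9 and 24.1 CPM, and ImmAMs 2 to 4 had 38.8, 37.5 and 35.1 CPM. RXR-deficient mAMs spread from below the control range to near its top, and ImmAMs overlapped only with control mAM replicate 4. The log2 difference of ImmAMs was 0.49 against control mAMs (SE 0.226, p-adj = 0.0921 in limma) and 0.62 against RXR-deficient mAMs (SE 0.242, p-adj = 0.0590), and neither passed the threshold. The first was called without mAM_WT replicate 4 (p-adj = 0.0310) or mAM_KO replicate 3 (0.0118), and the second with all 11 libraries (0.0393) and without mAM_WT replicate 4 (0.0382), mAM_KO replicate 1 (0.0214) or mAM_KO replicate 2 (0.0457). Over the alternative fits these p-adj ran from 0.0148 to 0.161 and from 0.0365 to 0.119. Between RXR-deficient and control mAMs the value was -0.13 (interval -0.62 to 0.36, p-adj = 0.760), and 0.0091 without mAM_WT replicate 4 (p-adj = 0.988).

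The promoters were searched for the letters that STAT proteins bind, TTCNNNGAA, on both strands, in the 300 bases around each annotated start (250 before and 50 after; RefSeq, GRCm38.p6). The table of promoters held 10 windows for 8 of the 10 genes, without *Csf1r* and *Csf2rb*. *Cish* and *Csf2rb2* had a match, compared with 8.30% of all 32851 promoters. The stretches are shown because *Cish* is the classical STAT5 target of this set and *Csf2rb2* the receptor gene whose share of its pair shifted. They are given in the direction of the gene, with the matches in capitals, on the plus strand for *Cish* (chr9:107296654-107296683) and the minus strand for *Csf2rb2* (chr15:78305717-78305746).
Cish: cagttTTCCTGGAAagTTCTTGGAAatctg
Csf2rb2: gtgtccacaaTTCTGAGAAgcaagcaaagc
*Cish* holds 2 matches, at positions 1 and 12 from the start, and *Csf2rb2* holds 1, at position -15. The letters GAGGAAGT, read by PU.1, occurred in 3.20% of all promoters and in *Csf2rb2* among the members (position 28 from the start). The direct repeat of AGGTCA with 1 base between its copies (DR1), a form that RXR dimers bind, occurred in 0.0396% of all promoters and in none of the 10 windows. With so rare a motif, no match in 10 windows was likely beforehand, so its absence says nothing on RXR binding. The study itself shows RXRα peaks in the vicinity of *Csf2rb2*. A match describes letters and not binding, and sites outside these windows were not searched.

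The rest of the pathway was read from 55 other genes in 6 lists, of which 46 had a row. In RXR-deficient mAMs, 3 of the 46 changed against control mAMs, 2 up and 1 down (median log2 difference 0.01, and 0.00 over all genes), and 1 without mAM_WT replicate 2 or mAM_KO replicate 3. In ImmAMs, 28 of the 46 changed against control mAMs, 17 up and 11 down (median 0.09, and 0.00 over all genes), and 20 against RXR-deficient mAMs, 13 up and 7 down (median 0.08, and -0.01 over all genes). These shares, 6.52%, 60.9% and 43.5% of the 46, stand beside 4.84%, 48.1% and 37.9% of all genes tested, so much of each count is the share found over all genes.

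*Il3ra*, the IL-3 receptor α chain and the partner of the *Csf2rb2* product, was the other receptor chain with a row, while *Il5ra* had none. It was at 16.5, 24.3, 24.8 and 17.7 CPM in control mAMs 1 to 4. The RXR-deficient mAMs 1 to 4 stood at 8.06, 10.6, 7.67 and 14.8 CPM, and ImmAMs 2 to 4 had 8.43, 9.25 and 9.22 CPM. Both RXR-deficient groups lay below the control libraries. *Il3ra* fell 2.36-fold in RXR-deficient mAMs (log2 -1.24, SE 0.171, p-adj = 0.00274 in limma) and 2.29-fold in ImmAMs (log2 -1.19, SE 0.171, p-adj = 8.34e-05) against control mAMs. ImmAMs and RXR-deficient mAMs differed by 0.05 (SE 0.183, p-adj = 0.868). These calls held in each alternative and with each library left out.

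The inhibitors (17 of 18 with a row, *Socs1* without) included 1 rise in RXR-deficient mAMs. That gene was *Socs3*, whose product blocks JAK kinases at gp130 and G-CSF receptors. *Socs3* was at 8.71, 6.62, 5.39 and 10.4 CPM in control mAMs 1 to 4, at 20.8, 12.2, 15.4 and 12.4 CPM in RXR-deficient mAMs 1 to 4 and at 53.3, 58.8 and 57.7 CPM in ImmAMs 2 to 4. The 3 groups did not overlap. It rose 2.09-fold in RXR-deficient mAMs (log2 1.07, SE 0.216, p-adj = 0.0187 in limma) and 7.51-fold in ImmAMs (log2 2.91, SE 0.216, p-adj = 1.94e-07) against control mAMs. The first call was lost without mAM_WT replicate 2 (p-adj = 0.0570), mAM_KO replicate 1 (0.0796) or mAM_KO replicate 3 (0.0660) and ran from 2.36e-05 to 0.0719 over the alternative fits.

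In ImmAMs, 9 inhibitor genes rose and 2 fell against control mAMs (median of the list 0.21), and 6 rose and 1 fell against RXR-deficient mAMs (median 0.19). That is 64.7% and 41.2% of the 17, against 48.1% and 37.9% of all genes, the second a share near the background. *Socs6* had 15.4 to 20.3 CPM in control mAMs, 19.999 to 24.9 CPM in RXR-deficient mAMs and 40.9 to 43.7 CPM in ImmAMs, a 2.36-fold rise in ImmAMs against control mAMs (p-adj = 5.61e-07 in limma). *Socs2*, another STAT5-induced inhibitor, had 43.0 to 49.8, 46.7 to 52.3 and 75.7 to 81.3 CPM, a 1.65-fold rise (p-adj = 5.08e-06). *Sh2b3*, which encodes the adaptor LNK that restrains JAK2, had 72.3 to 87.7, 74.0 to 87.2 and 119 to 141 CPM, a 1.65-fold rise (p-adj = 2.35e-05) and 1.64-fold against RXR-deficient mAMs (p-adj = 6.59e-05). Each of these groups of ImmAM libraries lay above all mAM libraries.

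Of the other JAK and STAT genes (6 of 7 with a row, *Stat4* without), none was called in RXR-deficient mAMs by limma, edgeR, DESeq2 or limma-voom, and 1 had an unadjusted p under 0.05. *Jak3* was at -0.36 there (SE 0.144, p-adj = 0.149 in limma). In ImmAMs 2 fell against control mAMs and 1 against RXR-deficient mAMs (list medians -0.05 and -0.04), 33.3% and 16.7% of the 6 and below the shares of all genes (48.1% and 37.9%). *Jak3*, the kinase partner of the γ chain of the IL-2 receptor family, had 30.9 to 45.2 CPM in control mAMs, 24.0 to 33.3 CPM in RXR-deficient mAMs and 22.0 to 27.3 CPM in ImmAMs, a 1.46-fold fall in ImmAMs against control mAMs (p-adj = 0.00738 in limma). *Stat6*, the IL-4 response factor, had 289.6 to 317.4, 281 to 291 and 255 to 263 CPM, a 1.16-fold fall (p-adj = 0.00554), and its call against RXR-deficient mAMs (log2 -0.16, p-adj = 0.0493) was lost with all 11 libraries (0.0562) and without any 1 of 9 libraries (0.0524 to 0.129), all but mAM_WT replicate 4.

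Among the 13 adaptors and kinases, 0 were called in RXR-deficient mAMs by limma, where 2 had an unadjusted p under 0.05, by edgeR or by limma-voom, and DESeq2 called 1. In ImmAMs 3 genes of this list rose and 3 fell against control mAMs (median 0.01), and 2 rose and 2 fell against RXR-deficient mAMs (median 0.04). The called shares, 46.2% and 30.8% of the 13, were no higher than those of all genes (48.1% and 37.9%). *Pik3cd*, the leukocyte PI3-kinase subunit, rose 1.64-fold (125 to 148 CPM in control mAMs, 218 to 239 CPM in ImmAMs, p-adj = 1.09e-05) and the adaptor gene *Dok2* 1.43-fold (36.6 to 43.2 and 49.6 to 61.8 CPM, p-adj = 0.00133 in limma). *Dok1*, a related adaptor gene, had 22.6 to 29.1 CPM in control mAMs, 20.1 to 32.6 CPM in RXR-deficient mAMs and 30.3 to 35.3 CPM in ImmAMs. Its rise in ImmAMs against control mAMs (log2 0.38, p-adj = 0.0441 in limma) was lost with all 11 libraries (0.0584), without a variance trend (0.0770) and without mAM_WT replicate 1 (0.0915) or 3 (0.108) or Imm_KO replicate 3 (0.117) or 4 (0.133). *Lyn*, a SRC-family kinase gene, had 386 to 444 CPM in control mAMs, 439 to 489 CPM in RXR-deficient mAMs and 357 to 379 CPM in ImmAMs, which lay below all mAM libraries. It fell 1.23-fold in ImmAMs against RXR-deficient mAMs (log2 -0.30, SE 0.0714, p-adj = 0.00453 in limma), a call kept with each library left out (0.00148 to 0.0228). Against control mAMs the fall was smaller (log2 -0.19, p-adj = 0.0332 in limma). That call was lost with edgeR (0.0656), limma-voom (0.0551) and quantile normalization (0.455), among other fits. It was also lost without mAM_WT replicate 1, 2 or 3 or Imm_KO replicate 2, 3 or 4 (0.0577 to 0.115).

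STAT5 target genes (9 of 10 with a row, *Il2ra* without) moved both ways. In ImmAMs 5 rose and 3 fell against control mAMs (median 0.48), and 5 rose and 3 fell against RXR-deficient mAMs (median 0.60). In both comparisons 88.9% of the 9 were called, against 48.1% and 37.9% of all genes, with no test of that difference. The cyclin D genes went apart. *Ccnd1* had 1.52 to 2.04 CPM in control mAMs, 2.32 to 4.07 CPM in RXR-deficient mAMs and 13.3 to 16.4 CPM in ImmAMs, an 8.29-fold rise in ImmAMs against control mAMs (p-adj = 2.96e-07 in limma). *Ccnd2* had 348 to 416, 266 to 354 and 133 to 144 CPM, a 2.75-fold fall in ImmAMs (p-adj = 4.31e-08). *Pim1*, a survival kinase gene, had 81.4 to 103.9, 68.9 to 118 and 193 to 210.3 CPM, a 2.22-fold rise (p-adj = 5.36e-06). In RXR-deficient mAMs, *Ccnd1* was the 1 called gene of this list, at 0.89 (SE 0.236) with a p-adj just under 0.05 in limma. It was lost without any 1 of 9 libraries (0.0632 to 0.182), all but mAM_KO replicate 2. Only 8 of 19 alternative fits called it, with p-adj from 0.00656 to 0.140. Among those above the threshold were limma-voom (0.0932), a pseudocount of 0.1 CPM (0.0502) and only the groups compared (0.129).

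**Figure D4:**
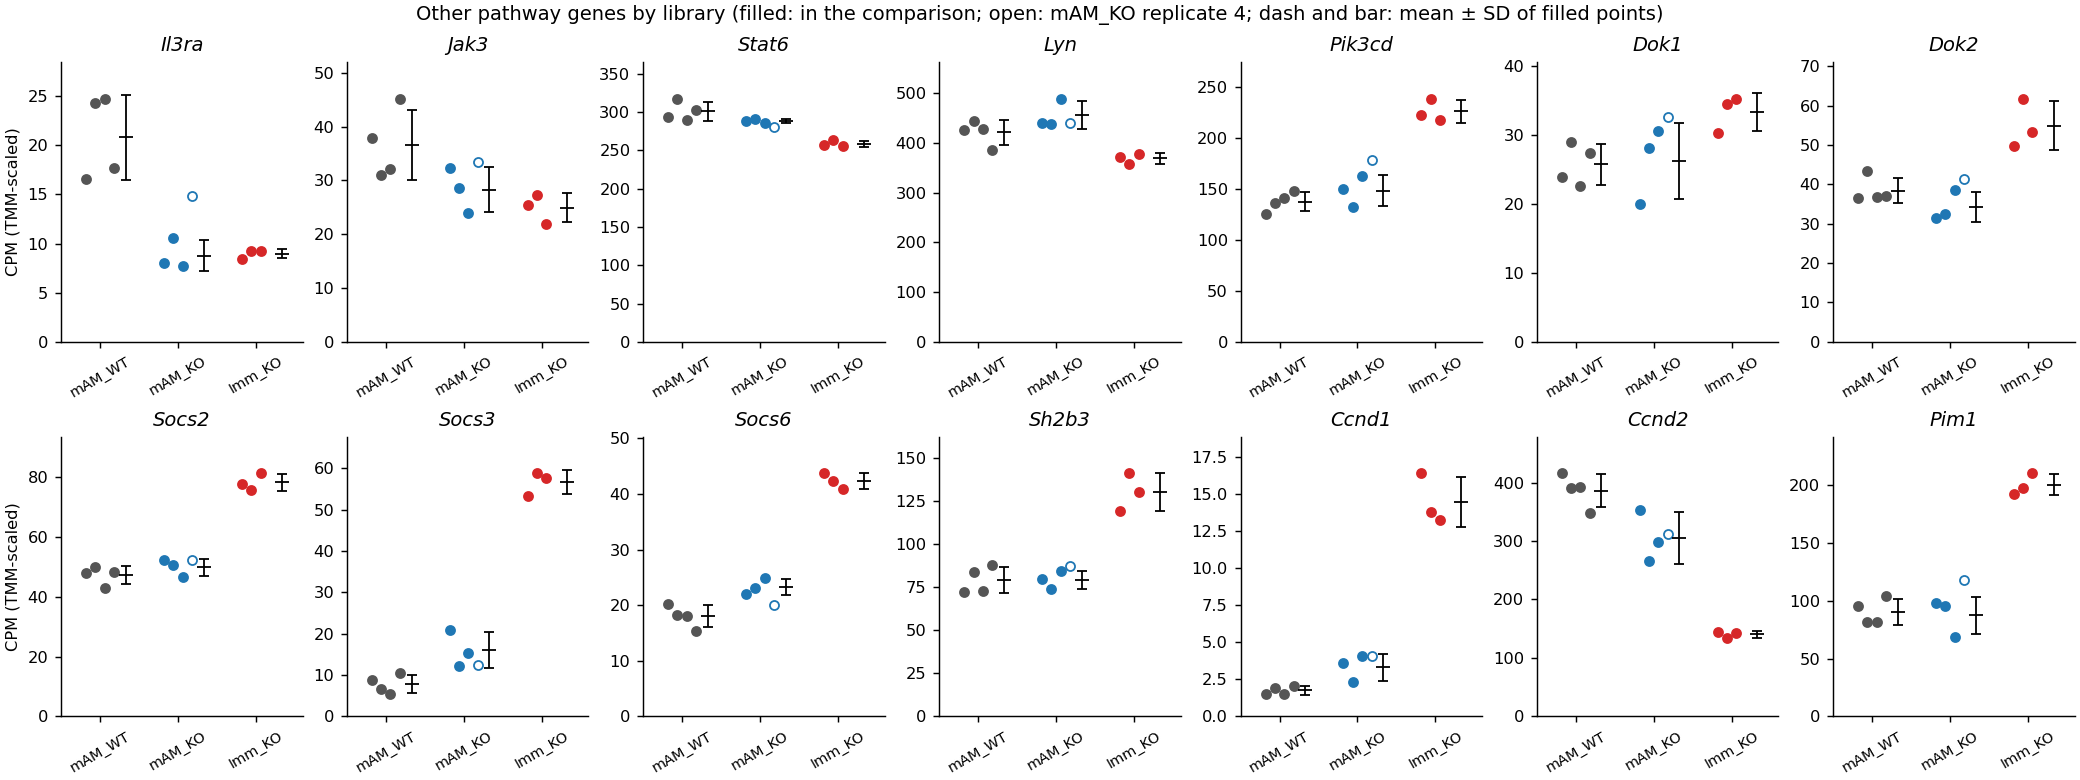
CPM on TMM-scaled library sizes (y axis, from 0) of 14 other pathway genes in each library by group; filled points entered the comparisons, the open point is mAM_KO replicate 4, and the dash with its bar is the mean ± SD of the filled points. *Il3ra* is low in both RXR-deficient groups, whereas *Socs6*, *Socs2*, *Sh2b3*, *Pim1* and *Ccnd1* stand apart in ImmAMs and *Socs3* steps from group to group.

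The genes most like *Csf1r* over the 11 libraries (Pearson r of log2 CPM) were *Vgll4* (0.994), *Irf5* (0.994) and *Cd14* (0.992), and 253 of the 9949 genes compared reached 0.95. For *Csf2rb* the closest were *Per1* (0.920), *Pidd1* (0.856) and *Pik3r6* (0.855), and for *Csf3r* *Tubgcp6* (0.897), *Fggy* (0.892) and *Gm5345* (0.871), with no gene at 0.95 in either case. These values follow the order of the 3 groups as well as the spread within them, since the ImmAM libraries stand apart for *Csf1r*, and they carry no test.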

How the data were processed

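Total RNA of sorted AMs was sequenced as single-end reads of 60 bases. The study's methods give bronchoalveolar lavage as the source of the cells, whereas the series text gives digested lung. Per the methods and the submitters' processing notes, the authors trimmed reads with Cutadapt, quantified the GRCm38 transcriptome (release 99) with RSEM 1.3.1, scaled libraries by TMM in limma and dropped genes that reached 1 CPM in fewer than 3 samples. As deposited by the authors, each CPM value is (reads + 0.5) times a step that is constant within a library, and whole reads were recovered within 0.01 for 100% of the values. Depth was 16659960 to 37873532 reads per library.

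The log2 of the deposited CPM, with no further pseudocount, was fitted with group means by limma 3.58.1 in R 4.3.3, with a mean-variance trend in the eBayes step, over the 12889 genes that reached 1 CPM in 3 or more of 10 libraries, with Benjamini-Hochberg adjustment over all of them and a threshold of 0.05. Two-sided tests were used. The study's gene table leaves out mAM_KO replicate 4, so the fit did too. Libraries were taken as biological replicates, and the legends count them as mice. The study used both sexes, and the libraries have no label for sex. *Xist*, used here as a marker of sex, was present in every library. It was at 119 to 539 CPM in control mAMs, 55.5 to 458 CPM in RXR-deficient mAMs and 302 to 345 CPM in ImmAMs. The sex of each library, and whether each held cells of a single mouse, was not tested. edgeR 4.0.16, DESeq2 1.42.0 and limma-voom on recovered reads called 7, 8 and 8 of the 10 genes in ImmAMs against control mAMs. The other alternatives were pseudocounts of 0.1, 0.5 and 1 CPM, no filter, a filter at 5 CPM, 3 other scalings, only the groups compared, no variance trend, robust eBayes, array weights, the replicate block, a fold limit of 1.5, adjustment for *Xist*, a p-adj threshold of 0.1, *Csf2rb* and *Csf2rb2* summed, and each library left out. The fit was also run on simulated counts. These gave every gene the same relative spread and changed genes in RXR-deficient mAMs only, unlike the data. No result here rests on them.

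The 10 genes, the 6 pathway lists (ligands, other receptor chains, other JAK and STAT, inhibitors, adaptors and kinases, STAT5 targets), the 14 marker lists and the tests were chosen with earlier results of these data known. Some genes of these lists were left out and are not reported here. Named were all 10 genes, up to 3 called pathway genes per list and comparison with the largest log2 change whose higher group averaged 5 CPM or more, and the 3 genes most like *Csf1r*, *Csf2rb* and *Csf3r*. Positions, transcript lengths and shared 60-base windows come from GENCODE vM21 (GRCm38), in which 12927 of the 12932 genes were found, and promoters from RefSeq (GRCm38.p6).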

Additional observations from a re-analysis of the deposited data

Results flagged for a closer look

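In groups of 4 libraries, 6 of the 48 gene and group pairs examined held a library set far from the others by Dixon's test at its 95% critical value, where chance alone gives about 2.4. *Csf2ra* was at 753 CPM in control mAM replicate 4 and at 493 to 520.0 CPM in the other control libraries. *Cish* was at 35.5 CPM in the same library and at 22.9 to 24.7 CPM in the others. *Csf2rb* was at 922 CPM in control mAM replicate 3 against 1099 to 1111 CPM, and *Csf2rb2* at 419 CPM in RXR-deficient mAM replicate 1 against 327 to 332 CPM. Among the other pathway genes, *Dok2* was at 43.2 CPM in control mAM replicate 2 against 36.6 to 37.0 CPM, and *Lyn* at 489 CPM in RXR-deficient mAM replicate 3 against 439 to 441 CPM.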

How the results depend on the processing

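Of 927 repeats of the 30 member results under 31 alternatives, 832 kept their direction and side of the threshold, 30 lost a call, 50 gained one and 15 changed sign, each of these in a value that had not been called. Of the 10 genes, 0 were called between RXR-deficient and control mAMs with only these groups, without the variance trend and with the replicate block, where limma gave 4 an unadjusted p under 0.05, and 1 with limma-voom or a fold of at least 1.5; with each library left out, 0 to 2. The fold limit left 3 for ImmAMs against control mAMs (6 to 8 with libraries left out). For ImmAMs against RXR-deficient mAMs, all 11 libraries, only these groups, DESeq2 and a threshold of 0.1 gave 8 and quantile normalization 7 (4 to 8 with libraries left out). Of the 46 pathway genes in RXR-deficient mAMs, only these groups and no trend gave 1, no TMM factor 5, robust eBayes 6, DESeq2 9 and a threshold of 0.1 gave 10 (1 to 3 with libraries left out). The fold limit left 13 and 12 in ImmAMs against control and RXR-deficient mAMs (24 to 28 and 16 to 23 with libraries left out). Unless stated in this paragraph, the cause of these moves was not tested; the fold and threshold rules change the calls by construction.

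The sign changed in these values, none of them called. *Csf2ra* in ImmAMs against control mAMs was 0.0531 with quantile normalization and 0.0242 with array weights (-0.1145 to 0.0934 with libraries left out). In RXR-deficient against control mAMs, *Csf2rb* was 0.0207 with array weights and 0.0055 summed with *Csf2rb2* (-0.1209 to 0.0234 with libraries left out), *Csf2rb2* ran from -0.0047 without mAM_KO replicate 1 to 0.1745, *Csf3r* was 0.0139 with limma-voom and 0.0844 with the replicate block (-0.1914 to 0.1996), and *Cish* was 0.0395 with array weights (-0.3426 to 0.2117). There too, *Pim1* was 0.0524 with all 11 libraries and 0.0238 with array weights (-0.1519 to 0.1021), *Dok1* was -0.0793 with array weights and -0.0123 with adjustment for *Xist* (-0.1106 to 0.1944), and *Sh2b3* ran from -0.0396 to 0.0544 with libraries left out. *Il3ra* in ImmAMs against RXR-deficient mAMs was -0.1464 with all 11 libraries and -0.0017 with the replicate block (-0.0415 to 0.1886).

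Same-numbered libraries did not deviate together over all genes (r of -0.13 to 0.06 over 8 pairs, 0 above 0.1). Most of these pairs join different genotypes. RXR-deficient mAMs and ImmAMs could come from the same mouse, which the labels do not say. Their r was 0.06 for replicate 2 and -0.03 for replicate 3. Such values cannot show whether mice were shared, so the replicate block is kept as an alternative. No scaling moved the median of all genes by 0.1 on the log2 scale. *Csf1* rested on 20 to 36 reads in control mAMs, the thinnest depth of any member. In the main limma fit, each p-value rests on a spread pooled over all 3 groups, with 3 or 4 libraries a group. The eBayes step moves this spread towards the trend over all genes. The exact permutation tests used only the libraries of the groups compared.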
